A study of Mus musculus with 6 samples.

Results

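Solute carriers are membrane proteins that move small molecules across the plasma membrane or across the membranes of organelles. Their gene symbols carry a family number and a member number, and families are drawn up by sequence, so that 1 family usually handles related substrates. Through them a cell takes up amino acids, sugars, vitamins and metal ions, exports lactate or iron, and sets its pH and chloride. In the embryonic heart the epicardium is the outer cell sheet, a mesothelium that supplies fibroblasts and mural cells, while the cardiomyocytes below it depend on carriers for glucose, lactate, creatine and ions. The genes described here are all those in the deposited table whose symbol has the form Slc, family number, a, member number, without the mitochondrial Slc25 family and without Slc8a1 and Slc18a2. This gave 176 of 14549 genes, from 216 genes of that form, and 38 of the others were Slc25 genes. Of the 176, 171 encode carriers, in 43 families, and 5 carry such a symbol for other reasons (Slc9a3r1, Slc9a3r2, Slc4a1ap, Slc7a6os and Slc2a4rg-ps). Carriers with other forms of symbol, such as Slc35b1 or Slco2a1, were not among them.

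The data are poly(A) RNA sequencing of epicardium with subepicardium dissected from mouse hearts at E16.5 (embryonic day). The dKO group, 3 pools, had the genotype Meis1fl/fl;Meis2fl/fl;WT1-Cre, in which both floxed genes, encoding homeodomain transcription factors, are deleted where WT1-Cre is or has been active; the control group, 3 pools, was labelled wild-type. Each pool held 2 hearts, so the values do not show how single hearts varied. The sources used here do not say whether control embryos carried floxed alleles or a Cre. Values are normalised read counts, reads per 1e6 of the scaled library size, and 3 values of a group stand in the order of its pool numbers (1, 2 and 3 for dKO, 1, 2 and 4 for control). A log2 change is dKO minus control, taken after adding 1 to each value, so that the changes of low genes come out too small. Genes were called at a limma p, adjusted over all 14549 genes, under 0.05.

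Several facts of the libraries bear on every value below. Recovered totals were 13146322 to 20635676 reads. Meis2 averaged 41.3 ± 5.59 in dKO and 78.3 ± 13.0 in control pools (SD, n = 3 each; log2 change -0.90, limma adjusted p = 0.0035), and Meis1 65.9 ± 7.82 in dKO and 77.8 ± 24.8 in control pools (log2 change -0.20, limma adjusted p = 0.52). All 10 epicardial and mesothelial markers were lower in dKO, with a summed level of 325 to 397 in dKO and 1926 to 2711 in control pools, and so were 6 of 6 fibroblast markers (9467 to 12530 in dKO, 26176 to 29497 in control). All 12 cardiomyocyte markers were higher, with sums of 22503 to 26006 in dKO and 4229 to 9577 in control pools. Endothelial sums overlapped (1107 to 1249.6 in dKO, 929 to 1373 in control), while macrophage sums were 84.0 to 119 in dKO and 163 to 232 in control. In bulk tissue fewer cells of a type and less RNA per cell cannot be told apart, and the part of these marker differences in the carrier results was not tested.

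Of the 176 genes, 38 were lower in dKO (21.6%, against 12.2% of all genes tested) and 19 were higher (10.8%, against 9.81% of all genes). A further 119 were not called. Changes of at least 2-fold on the fitted scale numbered 29 lower and 6 higher, against 6.82% and 4.14% of all genes. The median log2 change of the 176 was -0.09 and that of all genes 0.00. In 52 genes every dKO pool was below every control pool (29.5%, against 21.1% of all genes), and in 33 every dKO pool was above (18.8%, against 19.3%). By edgeR on the recovered reads 34 were lower and 19 higher, against 11.4% and 8.96% of all genes, and Slc13a4, Slc8a3, Slc22a3, Slc1a6, Slc6a13 and Slc29a2 were not called. Over all 176 genes the share lower in dKO was thus above that of all genes, and the share higher was close to it. The lower share includes 10 called genes that reached 1 in control pools only, whose direction was fixed by the listing. Among genes at 1 or more in all 6 libraries the lower share was 15.1%, against 11.5% of all such genes.

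Part of the lower calls came from genes near the detection limit. Every gene of the table reached 1 in 3 or more libraries. Of the 176, 11 reached 1 in the 3 control pools and in no dKO pool, against 227 of all 14549 genes. Called lower were 10 of these 11 and 183 of these 227. The opposite pattern was shown by 0 of the 176 and by only 67 of all 14549 genes. A gene listed only through its control values had to be lower in dKO. The 10 such carriers called lower were Slc23a3, Slc26a3, Slc39a4, Slc30a2, Slc7a9, Slc22a14, Slc24a4, Slc13a4, Slc4a10 and Slc17a9. Among the 146 genes at 1 or more in all 6 libraries, 22 were lower (15.1%, against 11.5% of all such genes) and 17 higher (11.6%, against 10.5%). By mean level, 9 of 36 carriers over 50 were lower in dKO (25%, against 15.5% of all genes over 50), as were 14 of 91 between 5 and 50 (15.4%, against 11.4%) and 15 of 49 under 5 (30.6%, against 9.89%). Higher were 6, 11 and 2 in these bands, against 15.7%, 8.86% and 4.32% of all genes. The 15 lower genes under 5 included all of the 10 named above except Slc23a3 and Slc26a3. For these the direction was fixed by the listing, so the share in that band is no measure of a fall. The plot of level and change shows the carriers on this axis.

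**Figure D1:**
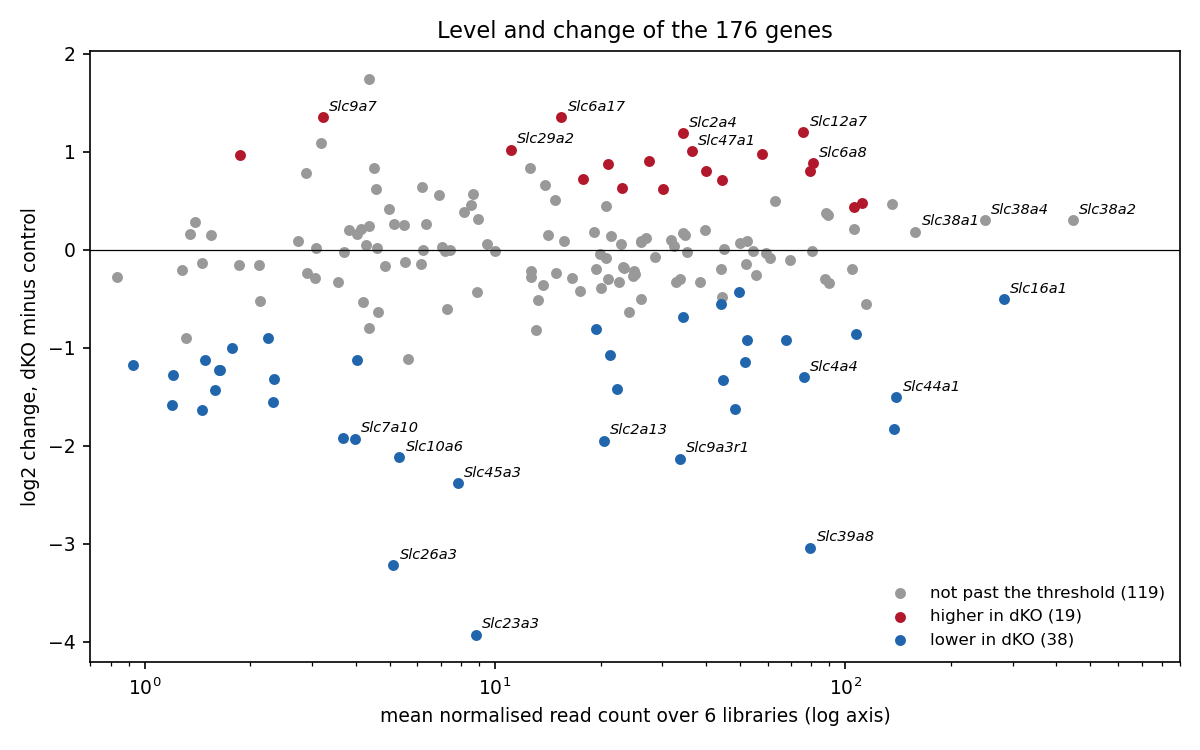
Log2 change, dKO minus control, of the 176 genes against their mean normalised read count over 6 libraries (log axis); red marks genes called higher, blue lower and grey not called. The 3 largest falls lie at means under 100, and the abundant Slc38a2 and Slc38a4, at the right, lie near 0.

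The ends of the distribution can be set beside their promoters, since MEIS proteins bind the core TGACAG. Shown are RefSeq windows on GRCm38.p6, from 250 bases before to 50 after the gene start, for 2 of the genes that fell most and the 2 that rose most among called genes. They were chosen because their RefSeq start lay within 20 bases of the GENCODE start, and capitals mark TGACAG or its reverse complement CTGTCA. Slc26a3, with a fall between those of the 2 shown, was left out, as its RefSeq start lay 47348 bases away. Its window held the core 2 times. The windows are chr1:75133841-75134140 (minus strand) for Slc23a3, chr3:135825029-135825328 (plus strand) for Slc39a8, chr3:107517969-107518268 (minus strand) for Slc6a17 and chrX:20291778-20292077 (minus strand) for Slc9a7.
Slc23a3: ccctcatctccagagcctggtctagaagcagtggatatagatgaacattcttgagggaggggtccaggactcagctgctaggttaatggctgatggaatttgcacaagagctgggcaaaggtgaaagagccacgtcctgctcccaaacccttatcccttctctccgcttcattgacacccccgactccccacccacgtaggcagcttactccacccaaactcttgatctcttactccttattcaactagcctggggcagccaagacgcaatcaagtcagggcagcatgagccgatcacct
Slc39a8: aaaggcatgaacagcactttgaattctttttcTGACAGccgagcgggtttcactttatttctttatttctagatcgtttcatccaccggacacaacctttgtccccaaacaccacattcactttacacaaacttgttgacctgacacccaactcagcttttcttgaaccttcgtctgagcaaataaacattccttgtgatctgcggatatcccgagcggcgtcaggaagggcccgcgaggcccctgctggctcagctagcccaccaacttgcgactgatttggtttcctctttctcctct
Slc6a17: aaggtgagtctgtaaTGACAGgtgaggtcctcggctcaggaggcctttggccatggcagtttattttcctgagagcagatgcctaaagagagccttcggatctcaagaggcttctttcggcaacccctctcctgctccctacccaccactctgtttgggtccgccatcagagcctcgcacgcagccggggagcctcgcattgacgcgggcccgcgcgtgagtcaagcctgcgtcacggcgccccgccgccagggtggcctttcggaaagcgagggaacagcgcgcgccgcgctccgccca
Slc9a7: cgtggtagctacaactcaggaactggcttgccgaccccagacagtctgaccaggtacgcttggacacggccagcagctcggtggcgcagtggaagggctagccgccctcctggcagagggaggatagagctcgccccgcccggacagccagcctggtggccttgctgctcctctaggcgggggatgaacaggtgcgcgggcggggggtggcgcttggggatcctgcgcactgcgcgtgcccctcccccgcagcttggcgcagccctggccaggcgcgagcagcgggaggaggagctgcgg
The core stood 1 time in the windows of Slc39a8 and Slc6a17, and 0 times in those of Slc23a3 and Slc9a7. Windows were found for 133 of the 176 genes, and 32 held the core on either strand (24.1%). It was in 6 of 31 windows of genes lower in dKO (19.4%), in 3 of 12 of genes higher in dKO, and in 5191 of 27025 windows of all genes (19.2%). A match is a description of letters and no evidence of binding.

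The values of the genes with the largest changes are plotted by library. Slc23a3 (ENSMUSG00000026205, GRCm38 chromosome 1, 75125541 to 75133890), a member of the vitamin C carrier family, fell most. It had 0.155, 0.407 and 0.0731 in dKO pools, against 14.7, 18.3 and 19.3 in control pools, from 2, 5 and 1 reads in dKO and 237, 286 and 304 in control. Its log2 change was -3.93 (SE 0.26, limma adjusted p = 1.1e-05), and -6.66 by edgeR on the recovered reads. Its relative Slc23a2, an ascorbate importer of many tissues, had 20.3, 46.9 and 33.8 in dKO and 28.6, 25.3 and 36.0 in control pools, and was not called (limma adjusted p = 0.82). Slc26a3, an exchanger of chloride for bicarbonate at epithelial surfaces, had 0.0311, 0.0370 and 0.560 in dKO pools, against 9.66, 9.86 and 10.6 in control pools. These were 0, 0 and 11 reads in dKO and 156, 154 and 166 in control, and the log2 change was -3.22 (SE 0.28, limma adjusted p = 5.5e-05). In both genes the dKO pools were almost empty. Both reached 1 in control pools only, so being listed required them to be lower in dKO.

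**Figure D2:**
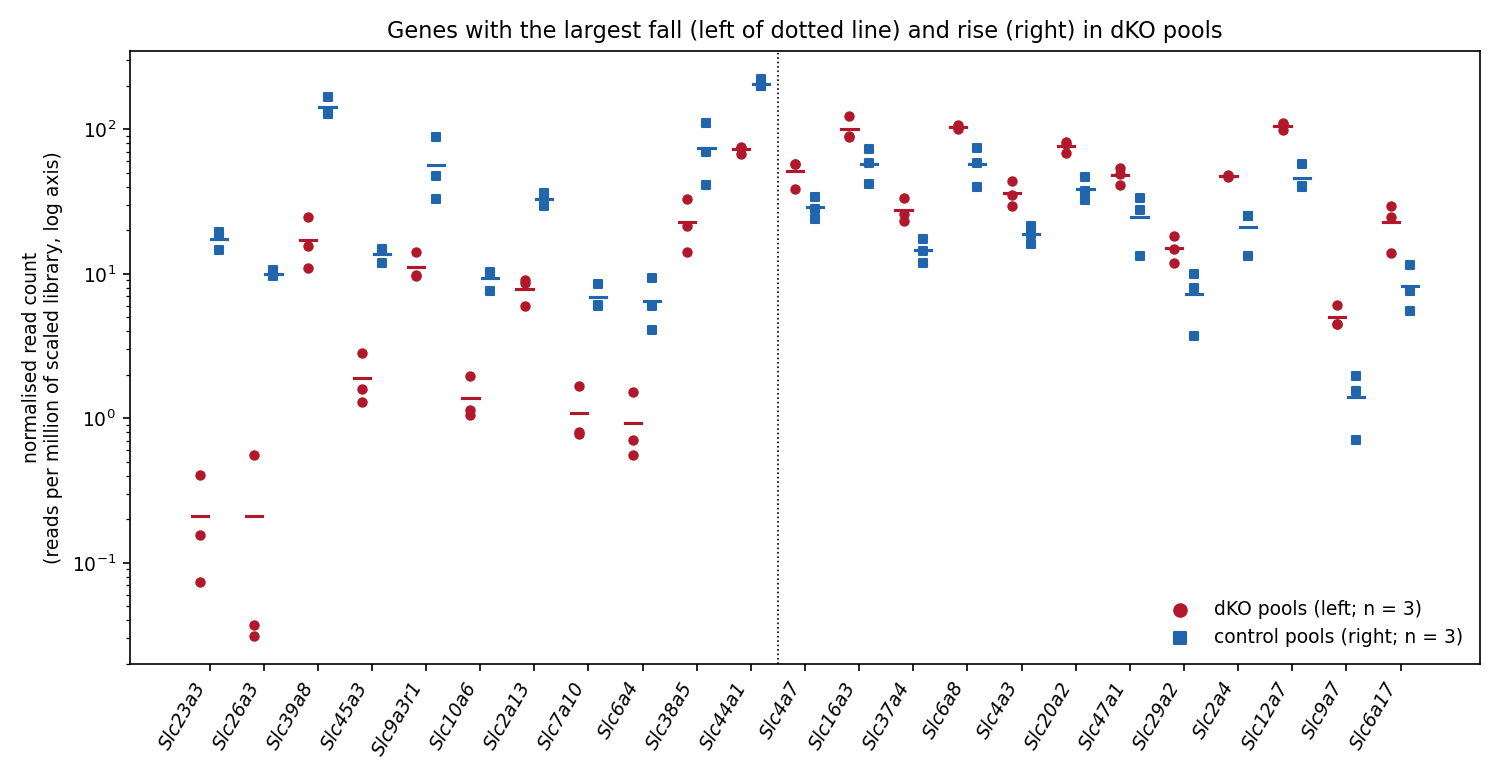
Normalised read count (log axis) of the genes with the largest called changes in each library, dKO pools left and control pools right, with bars at the group means; Slc9a3r1 is an adaptor protein and no carrier. The groups do not overlap for any of these genes, which the rule that chose them required.

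Zinc carriers fall into importers of the Slc39 family, which bring zinc into the cytosol, and exporters of the Slc30 family. Of 18 measured, 5 were lower in dKO (27.8%, against 12.2% of all genes) and 1 was higher (5.56%, against 9.81%), with a median log2 change of -0.25. Slc39a4 and Slc30a2, among the lower ones, reached 1 in control pools only. Slc39a8 (ENSMUSG00000053897, chromosome 3, 135825279 to 135888572), which imports zinc, manganese and iron, had 24.9, 10.9 and 15.5 in dKO pools, against 168, 131 and 127 in control pools. The dKO mean was 12.1% of the control mean (17.1 ± 7.13 in dKO and 142 ± 22.6 in control pools, SD, n = 3 each; log2 change -3.04, SE 0.25, limma adjusted p = 3.3e-05). Its closest relative, Slc39a14, had 25.3, 39.5 and 34.0 in dKO and 26.2, 37.1 and 32.4 in control pools and was not called (log2 change 0.04). The abundant Slc39a1, a plasma membrane importer of many cells, had 97.2 ± 7.08 in dKO and 112 ± 6.52 in control pools and was not called. Slc39a7, a zinc carrier of the endoplasmic reticulum, averaged 67.3 ± 11.4 in dKO and 71.7 ± 2.56 in control pools and was not called either, but 80.7% of its exon bases are shared with Gm20427, so its reads cannot be assigned to it alone. The intestinal importer Slc39a4 was lower at the detection limit (0.218, 0.0370 and 0.268 in dKO, 1.20, 2.14 and 1.68 in control; log2 change -1.18).

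Among the exporters Slc30a1, the zinc exporter of the plasma membrane, had 21.1, 26.7 and 30.7 in dKO and 51.3, 35.3 and 41.2 in control pools (log2 change -0.68, limma adjusted p = 0.027). Slc30a4, which loads zinc into vesicles, had 36.4, 34.9 and 35.2 in dKO and 53.3, 46.8 and 58.7 in control pools (log2 change -0.56, adjusted p = 0.015), and the vesicular Slc30a2 0.342, 0.629 and 0.658 in dKO and 2.19, 1.69 and 3.40 in control pools (log2 change -1.13). Slc30a9, a mitochondrial zinc carrier, went the other way, with 117, 135 and 136 in dKO and 80.3, 100.1 and 98.7 in control pools (log2 change 0.47, adjusted p = 0.027). Of these zinc calls only that of Slc39a8 held in all 6 fits with 1 pool left out. The largest adjusted p was 0.076 for Slc39a4, 0.078 for Slc30a1, 0.091 for Slc30a2, 0.058 for Slc30a4 and 0.11 for Slc30a9. Slc39a10 was high in 1 control pool, at 61.8, 100.2 and 107 in dKO and 219, 103 and 93.6 in control pools, with groups that overlapped.

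Of 8 carriers of iron, copper, magnesium and manganese 2 were lower in dKO (25%, against 12.2% of all genes) and none was higher (against 9.81%). Slc40a1, ferroportin, the only known cellular iron exporter, had 25.8, 35.5 and 34.5 in dKO pools, against 68.9, 64.9 and 79.8 in control pools (log2 change -1.14, SE 0.16, limma adjusted p = 0.00087). Slc31a2, a copper protein of intracellular membranes, had 28.4, 23.2 and 23.3 in dKO and 57.3, 72.6 and 63.1 in control pools (log2 change -1.33, adjusted p = 0.00026), while the copper importer Slc31a1 had 60.4, 93.2 and 87.9 in dKO and 68.5, 83.1 and 89.0 in control pools. The copper importer thus overlapped between the groups and its relative did not. The iron importers of endosomes and phagosomes, Slc11a2 and Slc11a1, were not called (log2 changes -0.08 and -0.54). Slc48a1, which carries haem out of the lysosome, had 44.7, 35.3 and 28.5 in dKO and 65.9, 64.9 and 74.3 in control pools (log2 change -0.92, adjusted p = 0.0038). In the list of macrophage and iron carriers (Slc40a1, Slc11a1, Slc11a2, Slc48a1 and Slc15a3), 2 of 5 were lower (40%, against 12.2% of all genes). None was called higher (against 9.81%). Slc15a3 went the other way, at 3.20, 4.03 and 4.07 in dKO and 2.69, 0.479 and 2.83 in control pools, and was not called. Macrophage markers were lower, 2 of 5 by the test, and their part in these carrier results was not tested.

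An abundant choline carrier was lower in dKO. Slc44a1 (ENSMUSG00000028412, chromosome 4, 53440413 to 53622478), a choline carrier of the plasma membrane and mitochondria, had 67.7, 74.4 and 75.4 in dKO pools, against 224, 199 and 198 in control pools. The dKO mean was 34.98% of the control mean (log2 change -1.50, SE 0.11, limma adjusted p = 2.4e-05). Slc44a2, its relative, was at 98.6, 101 and 99.6 in dKO and 86.4, 66.8 and 81.7 in control pools: every dKO pool was higher, with a log2 change of 0.35 that missed the threshold (adjusted p = 0.077). Of 13 carriers of vitamins, choline and haem, 3 were lower (23.1%, against 12.2% of all genes) and none was higher (against 9.81%). The lower ones were Slc44a1, Slc48a1 and Slc23a3, which reached 1 in control pools only for Slc23a3. The thiamine carriers Slc19a2 and Slc19a3 and the folate carriers Slc19a1 and Slc46a1 were not called.

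Lactate and other monocarboxylates are carried with protons by Slc16a1 (Mct1), Slc16a7 and the export form Slc16a3 (Mct4), which need the chaperones Bsg or Emb to reach the membrane. Averaged over all 6 libraries, Slc16a1 had the highest level per kb of the 176 genes. It stood at 53.0 in dKO and 74.9 in control pools. In dKO pools alone Slc38a4 (64.8) and Slc38a2 (55.8) were above it. The normalised read count of Slc16a1 was 213, 219 and 271 in dKO pools, against 312, 318 and 364 in control pools (log2 change -0.50, SE 0.13, limma adjusted p = 0.023). Slc16a3 moved the opposite way, at 123, 88.5 and 89.6 in dKO and 41.7, 58.3 and 73.0 in control pools (log2 change 0.81, SE 0.21, adjusted p = 0.019). Neither pair of groups overlapped, but both calls were lost in fits with 1 pool left out, with adjusted p up to 0.090 for Slc16a1 and 0.064 for Slc16a3. Slc16a7 was at 6.56, 8.03 and 7.72 in dKO and 6.64, 7.56 and 8.22 in control pools. Of the chaperones, Emb had 6.87, 4.70 and 4.604 in dKO and 15.3, 18.2 and 14.1 in control pools (log2 change -1.41, adjusted p = 0.002), and Bsg 429, 438 and 428 in dKO and 487, 712 and 679 in control pools (log2 change -0.52, adjusted p = 0.042).

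In the whole class of monocarboxylate, dicarboxylate and fatty acid carriers, 4 of 16 were lower (25%, against 12.2% of all genes). In the same class 1 was higher (6.25%, against 9.81%). Sparse lower genes were also among them: the sulphate carrier Slc13a4 had 0.0311, 0.925 and 0.268 in dKO and 4.04, 2.39 and 1.87 in control pools, and Slc16a9 1.90, 2.11 and 2.51 in dKO and 5.65, 6.61 and 5.43 in control pools, with 23.5% of its exon bases shared with Gm7097. Slc13a4 reached 1 in control pools only, and its call was lost with 1 pool left out (adjusted p up to 0.060). The fatty acid carriers Slc27a1, Slc27a3, Slc27a4 and Slc27a6 were not called. Among hypoxia and glycolysis carriers (Slc2a1, Slc2a3, Slc16a1 and Slc16a3), 2 of 4 were higher and 1 was lower, against 9.81% and 12.2% of all genes.

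Amino acid carriers were the largest class, with 31 genes, of which 9 were lower in dKO (29.0%, against 12.2% of all genes) and 1 was higher (3.23%, against 9.81%), with a median log2 change of -0.17. Slc7a9, among the lower ones, reached 1 in control pools only. The most abundant ones did not pass the test. Slc38a2, a sodium-coupled carrier of small neutral amino acids, had 447, 499.7 and 533 in dKO and 369.6, 412 and 416 in control pools, and its relative Slc38a4 234, 284 and 311 in dKO and 228, 195 and 249 in control pools. Neither was called, although every dKO pool was above every control pool for Slc38a2 (log2 change 0.30, limma adjusted p = 0.12). Slc38a5, a glutamine carrier that can run in either direction, had 32.8, 21.4 and 14.1 in dKO pools, against 41.5, 69.3 and 111 in control pools (log2 change -1.62, SE 0.35, adjusted p = 0.009). The lowest control pool was above the highest dKO pool, with a wide spread inside each group. Slc38a5 is X-linked, as are 8 of the 176 genes in all. Of these 8 genes 3 were lower and 2 higher in dKO, against 12.2% and 9.81% of all genes. The Y-linked Ddx3y exceeded the RNA Xist in 2 of 3 dKO pools (1 and 2) and in 1 of 3 control pools (4). With at most 2 pools of either kind in a group, the part of sex in the X-linked results was not tested. The other 6 measured Slc38 genes were not called.

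Many light chains of the Slc7 family work only when joined to a heavy chain of the Slc3 family. The common heavy chain, Slc3a2, had 54.3, 43.7 and 54.0 in dKO and 63.5, 60.6 and 57.5 in control pools, with a log2 change of -0.26 that was not called (limma adjusted p = 0.2). Its light chain Slc7a5 (Lat1), a carrier of large neutral amino acids, was higher in dKO, at 30.2, 41.5 and 38.3 in dKO and 20.6, 23.8 and 26.0 in control pools (log2 change 0.62, SE 0.17, adjusted p = 0.027). Slc7a8 (Lat2), with an overlapping range of substrates, was lower, at 8.98, 11.4 and 14.3 in dKO and 40.4, 24.0 and 34.3 in control pools (log2 change -1.42, SE 0.23, adjusted p = 0.0022). The 2 light chains thus moved in opposite directions while the heavy chain did not pass the test. The call of Slc7a5 was lost in 4 of the 6 fits with 1 pool left out (adjusted p up to 0.11), and that of Slc7a8 in none.

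Slc7a10, a carrier of small neutral amino acids such as serine, had 0.777, 1.66 and 0.804 in dKO and 8.55, 5.97 and 6.06 in control pools (log2 change -1.93, adjusted p = 0.0014), with 17.9% of its exon bases shared with Lrp3. Slc7a9, a cystine carrier of kidney, had 0.0311, 0.0370 and 0.560 in dKO and 2.81, 2.78 and 2.51 in control pools (log2 change -1.64, adjusted p = 0.0044). Slc7a6 and Slc7a7, which exchange cationic for neutral amino acids, were not called (log2 changes 0.07 and -0.01). Of the 7 measured members of the heavy and light chain list 3 were lower and 1 was higher, against 12.2% and 9.81% of all genes.

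Other lower members of the class were the large neutral amino acid carrier Slc43a1 (16.6, 12.02 and 11.5 in dKO, 33.4, 28.8 and 25.1 in control; log2 change -1.07), the cationic amino acid carrier Slc7a3 (1.21, 0.925 and 0.414 in dKO and 1.76, 5.39 and 4.29 in control pools; -1.32), the glutamate carrier Slc1a6 (1.71, 0.925 and 1.19 in dKO and 3.43, 2.58 and 3.65 in control pools; -0.90) and Slc36a4 (42.7, 41.2 and 42.9 in dKO and 59.9, 58.1 and 54.3 in control pools; -0.43). Slc43a3, placed here by its family number although it carries purine bases, was the most abundant of the lower ones per kb over all 6 libraries. It had 85.6, 75.4 and 65.2 in dKO pools, against 108, 138 and 171 in control pools (log2 change -0.86, SE 0.17, limma adjusted p = 0.0064). With 1 pool left out the adjusted p was up to 0.11 for Slc7a3, 0.15 for Slc1a6 and 0.097 for Slc36a4. Among 8 carriers known as ATF4 targets of the amino acid response, 1 was higher (Slc7a5) and 1 was lower (Slc7a3). These shares, 12.5% each, were close to the 9.81% and 12.2% of all genes. Slc1a4, Slc1a5, Slc3a2, Slc7a1, Slc38a2 and Slc6a9 were not called.

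**Figure D3:**
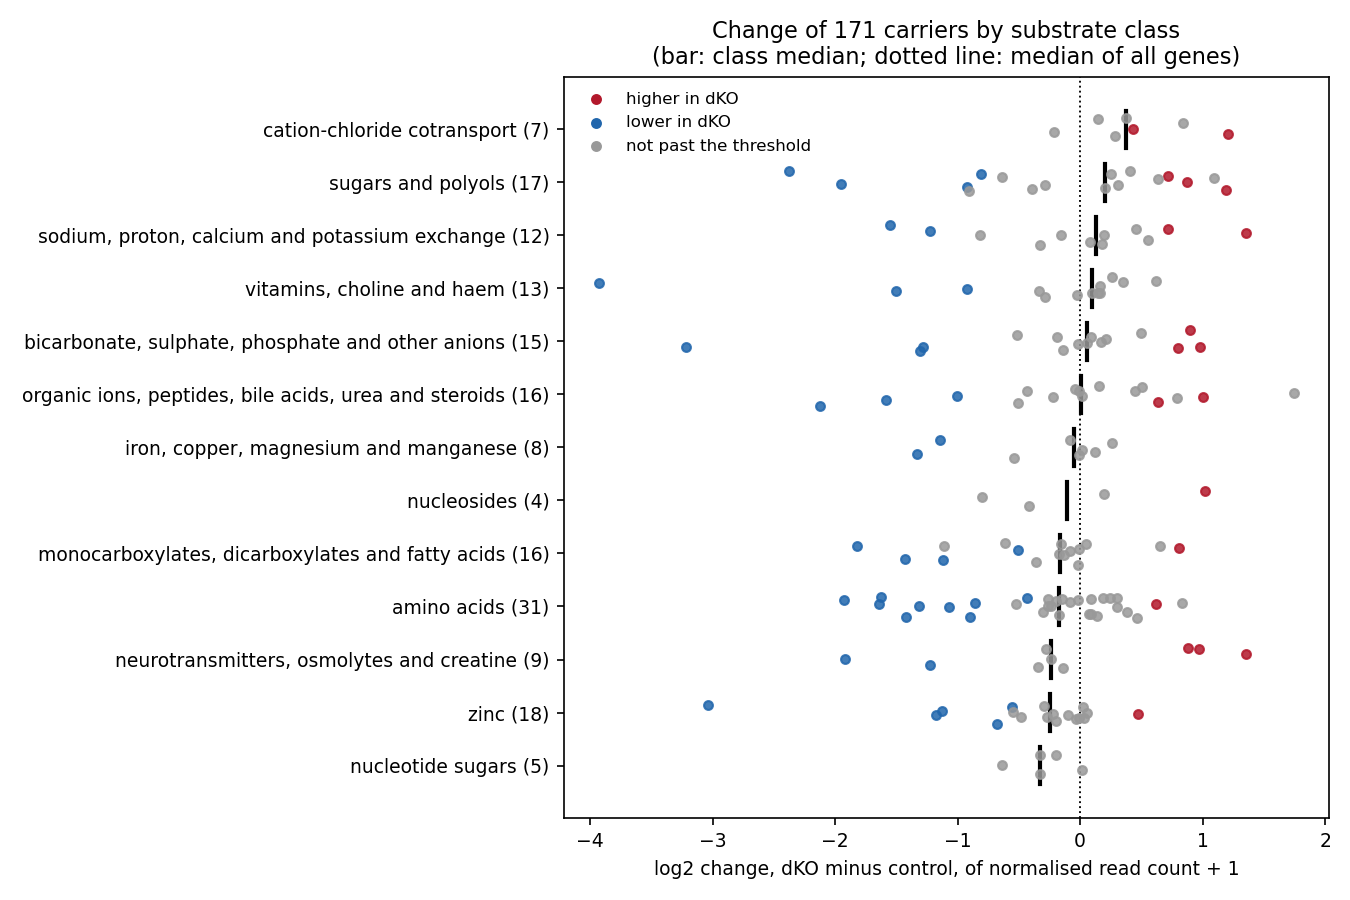
Log2 change, dKO minus control, of every carrier by substrate class, with 1 point a gene (red higher, blue lower, grey not called) and a bar at the class median. Lower were 9 of 31 amino acid carriers (29.0%), 5 of 18 zinc carriers (27.8%) and none of 7 cation-chloride cotransporters, against 12.2% of all genes. These lower genes include Slc7a9, Slc39a4 and Slc30a2, which reached 1 in control pools only, so that being listed required them to be lower.

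Carriers of bicarbonate, phosphate and other anions were split, with 3 higher and 3 lower of 15 (20% each, against 9.81% and 12.2% of all genes). Slc26a3 and Slc4a10, among the lower ones, reached 1 in control pools only. Slc4a4, the electrogenic sodium bicarbonate cotransporter, had 38.4, 41.4 and 50.4 in dKO pools, against 132, 94.4 and 101 in control pools (log2 change -1.30, SE 0.16, limma adjusted p = 0.00045). The electroneutral sodium bicarbonate cotransporter Slc4a7 was higher, at 38.4, 57.1 and 57.9 in dKO and 24.0, 28.2 and 34.2 in control pools (log2 change 0.80, adjusted p = 0.016; up to 0.071 with 1 pool left out). The chloride bicarbonate exchanger Slc4a3, known from heart and brain, was also higher, at 43.7, 35.1 and 29.6 in dKO and 16.1, 18.8 and 21.4 in control pools (log2 change 0.90, adjusted p = 0.0069). Within this 1 family the sodium-coupled members thus moved in both directions. Slc4a10, another of them, was lower at the detection limit (0.0311, 0.481 and 0.365 in dKO, 1.82, 2.33 and 2.19 in control; log2 change -1.28). The phosphate importer Slc20a2 was higher, with 68.7, 82.0 and 79.6 in dKO and 32.5, 37.1 and 46.6 in control pools (log2 change 0.98, SE 0.16, adjusted p = 0.0018). Its relative Slc20a1 was above control in every dKO pool, at 71.1, 74.98 and 74.2 in dKO and 37.9, 60.9 and 59.6 in control pools, and missed the threshold (adjusted p = 0.072).

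Cotransporters of cations with chloride, the Slc12 family, had a median log2 change of 0.38. Of 7 genes 2 were higher (28.6%, against 9.81% of all genes) and none was lower (against 12.2%). The potassium chloride exporter Slc12a7 (ENSMUSG00000017756, chromosome 13, 73733094 to 73816754) had 98.1, 108 and 111 in dKO pools, against 40.4, 39.6 and 57.7 in control pools. Its dKO mean was 2.30 times the control mean (log2 change 1.20, SE 0.16, limma adjusted p = 0.00065). Slc12a2, which brings sodium, potassium and chloride into the cell, had 115, 129 and 120.0 in dKO and 82.2, 91.0 and 95.7 in control pools (log2 change 0.44, adjusted p = 0.024; up to 0.10 with 1 pool left out). The potassium chloride exporter Slc12a4 was not called (log2 change 0.15). Slc12a5, the neuronal form and the 1 measured gene of the neuronal list, stood at 1.34, 1.44 and 2.12 in dKO and 1.142, 1.05 and 1.24 in control pools.

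Of 12 exchangers of sodium for protons, calcium or potassium, 2 were higher and 2 lower (16.7% each, against 9.81% and 12.2% of all genes). The higher ones were both sodium or potassium for proton exchangers of the Golgi region. Slc9a7 had 4.51, 4.48 and 6.11 in dKO pools, against 0.710, 1.95 and 1.56 in control pools (log2 change 1.35, SE 0.30, limma adjusted p = 0.01), and Slc9a8 17.9, 26.3 and 23.1 in dKO and 12.6, 11.5 and 15.5 in control pools (log2 change 0.72, adjusted p = 0.03). With 1 pool left out these adjusted p reached 0.052 and 0.12. Lower were the sodium calcium exchangers Slc24a4, with 0.964, 0.703 and 0.414 in dKO and 3.55, 3.99 and 4.29 in control pools (log2 change -1.56), and Slc8a3, with 0.218, 1.29 and 0.317 in dKO and 2.13, 2.39 and 3.46 in control pools (log2 change -1.23; adjusted p up to 0.099 with 1 pool left out). Slc24a4 reached 1 in control pools only.

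Sugar carriers gave 3 higher and 4 lower genes of 17 (17.6% and 23.5%, against 9.81% and 12.2% of all genes). Slc2a4 (Glut4, ENSMUSG00000018566, chromosome 11, 69942539 to 69948188), the insulin-responsive glucose carrier of muscle and fat, had 47.8, 48.2 and 46.5 in dKO pools, against 13.2, 25.1 and 25.05 in control pools (log2 change 1.19, SE 0.23, limma adjusted p = 0.0047). Slc2a3, a high-affinity glucose carrier, had 51.8, 55.4 and 59.3 in dKO and 31.3, 29.7 and 39.9 in control pools (log2 change 0.71, adjusted p = 0.0075). The dKO pools were close to each other for both genes and above every control pool. The most abundant glucose carrier per kb, Slc2a1 (Glut1), overlapped between the groups, at 141, 91.3 and 109 in dKO and 79.8, 103 and 110.1 in control pools. Slc37a4, which carries glucose 6-phosphate into the endoplasmic reticulum, was higher (33.4, 23.3 and 25.8 in dKO, 11.9, 14.3 and 17.5 in control; log2 change 0.87, adjusted p = 0.012).

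On the lower side Slc2a13, which imports myo-inositol with protons, had 8.67, 5.96 and 9.09 in dKO pools, against 36.2, 33.7 and 29.2 in control pools (log2 change -1.95, SE 0.20, limma adjusted p = 0.00015). The sodium-coupled myo-inositol carrier Slc5a3 was at 17.1, 17.1 and 17.4 in dKO and 24.8, 19.4 and 24.9 in control pools; the groups did not overlap, but it was not called (adjusted p = 0.13). Slc37a3 was lower with little spread, at 47.7, 46.1 and 44.8 in dKO and 97.4, 84.1 and 85.1 in control pools (log2 change -0.93, adjusted p = 0.00061), as was the sugar carrier Slc50a1, at 12.2, 13.5 and 15.8 in dKO and 24.9, 23.1 and 27.0 in control pools (log2 change -0.81, adjusted p = 0.0083). Slc45a3 had 2.83, 1.59 and 1.29 in dKO and 11.9, 14.5 and 14.9 in control pools (log2 change -2.38, adjusted p = 0.00026), with 13.5% of its exon bases shared with Gm29103.

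A list of carriers known from striated muscle had a median log2 change of 0.77. Of its 6 genes none was lower (against 12.2% of all genes) and 3 were higher (50%, against 9.81%). These were Slc2a4, Slc4a3 and the creatine carrier Slc6a8, which had 107, 104 and 99.8 in dKO pools, against 39.8, 58.2 and 74.6 in control pools (log2 change 0.88, SE 0.20, limma adjusted p = 0.01). The fatty acid carrier Slc27a1 was above control in every dKO pool and just missed the threshold (19.1, 19.3 and 13.4 in dKO, 8.98, 11.3 and 11.2 in control; adjusted p = 0.051). The carnitine carrier Slc22a5 (log2 change -0.04) and the taurine carrier Slc6a6 (-0.34) were not called. In Slc6a8 and Slc2a4 the lowest pool was control 1, which also had the lowest sum of cardiomyocyte markers. When the mean of the 12 cardiomyocyte markers was added to the fit, 0 of the 176 genes were called higher and 4 lower. Among all genes tested the same fit called 38 higher and 144 lower, against 1427 and 1778 without this score. Calls were thus lost throughout the genes tested, not only among the carriers. That score did not overlap between the groups (9.84 to 10.1 in dKO, 7.47 to 8.69 in control), so the score separates the pools as the genotype does. In that fit the changes of Slc2a4 (-0.13), Slc6a8 (-0.28), Slc16a3 (-0.28), Slc47a1 (-0.58) and Slc29a2 (-0.67) had the opposite sign, as did that of the lower gene Slc30a1 (0.0047). None of these changes was called there (limma adjusted p of 0.74 to 0.998), so no reversal can be read from them. Slc23a3, Slc38a5 and Slc43a3 were among the 4 lower genes.

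**Figure D4:**
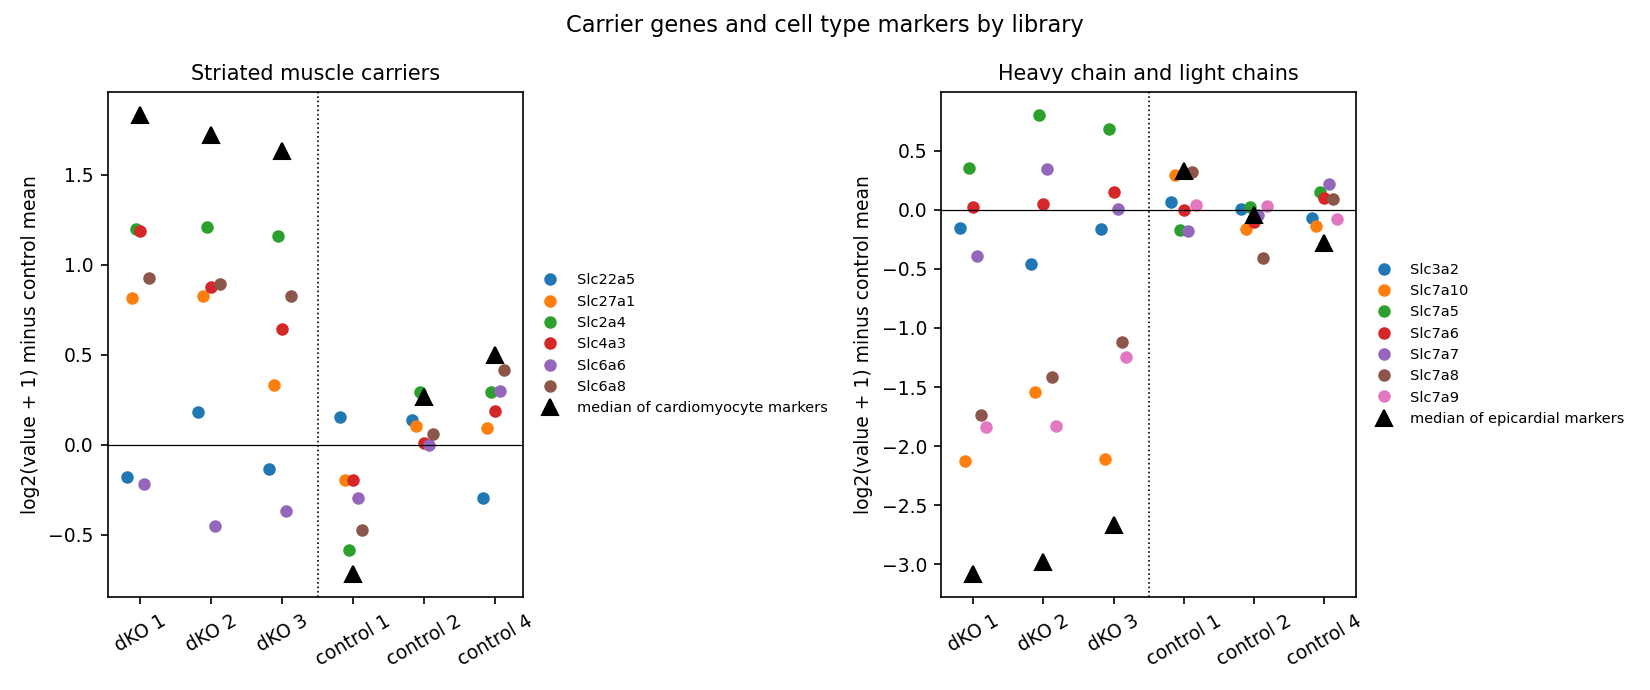
Log2(value + 1) minus the control mean in each library, dKO pools left of the dotted line and control pools right of it; circles are the 6 striated muscle carriers (left panel) and 7 heavy and light chains (right panel), and black triangles the median of the 12 cardiomyocyte markers (left) or the 10 epicardial markers (right). Slc2a4, Slc4a3, Slc6a8 and Slc27a1 lie above 0 in the dKO pools and Slc22a5 and Slc6a6 near or below it; Slc7a5 and Slc7a8 lie on opposite sides of 0.

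Among 9 carriers of neurotransmitters, osmolytes and creatine 3 were higher and 2 lower (33.3% and 22.2%, against 9.81% and 12.2% of all genes). Slc17a9, among the lower ones, reached 1 in control pools only. Slc6a17, a neutral amino acid carrier of synaptic vesicles, had 13.8, 24.7 and 29.6 in dKO pools, against 11.5, 7.56 and 5.56 in control pools (log2 change 1.35, SE 0.31, limma adjusted p = 0.012; up to 0.057 with 1 pool left out). The GABA carrier Slc6a13 was at 2.89, 2.40 and 3.04 in dKO and 0.463, 1.37 and 1.05 in control pools (log2 change 0.97, adjusted p = 0.044; up to 0.14). Slc6a4, the serotonin carrier, was lower, at 1.52, 0.555 and 0.706 in dKO and 9.36, 4.05 and 5.94 in control pools (log2 change -1.92, SE 0.34, adjusted p = 0.0034). Mast cells, which store serotonin, had 3 of 4 markers lower, with sums of 52.5 to 62.5 in dKO and 242 to 315 in control pools. The other marker was above control in every dKO pool and was not called (log2 change 0.41). The part of mast cells in the result of Slc6a4 was not tested. The vesicular ATP carrier Slc17a9 was lower near the detection limit (0.218, 0.999 and 0.414 in dKO, 4.11, 1.24 and 2.83 in control; adjusted p = 0.042, up to 0.13).

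Carriers of organic ions, peptides, bile acids and steroids gave 2 higher and 3 lower genes of 16 (12.5% and 18.75%, against 9.81% and 12.2% of all genes). Slc22a14, among the lower ones, reached 1 in control pools only. Slc10a6, which imports sulphated steroids, had 1.96, 1.15 and 1.05 in dKO pools, against 9.97, 10.3 and 7.59 in control pools (log2 change -2.12, SE 0.27, limma adjusted p = 0.00057). Slc22a14 and the organic cation carrier Slc22a3 were lower at the detection limit, with 0.0311, 0.0370 and 0.219 in dKO and 2.13, 1.82 and 2.95 in control pools for Slc22a14 (log2 change -1.58), and 1.40, 0.481 and 0.706 in dKO and 2.13, 2.58 and 3.33 in control pools for Slc22a3 (-1.0; adjusted p up to 0.15 with 1 pool left out). Slc47a1, which exchanges organic cations for protons, was higher, at 49.1, 41.0 and 53.9 in dKO and 13.4, 33.5 and 27.8 in control pools (log2 change 1.01, adjusted p = 0.029; up to 0.099), as was Slc22a17, at 24.1, 33.4 and 26.8 in dKO and 15.04, 16.6 and 21.8 in control pools (log2 change 0.63, adjusted p = 0.043; up to 0.16). Of 4 nucleoside carriers Slc29a2 was higher (14.97 ± 3.12 in dKO, 7.25 ± 3.20 in control, SD, n = 3 each; log2 change 1.02, adjusted p = 0.044; up to 0.12), and Slc29a1 was at 44.3, 39.0 and 42.4 in dKO and 28.6, 33.7 and 49.9 in control pools. None of 5 nucleotide sugar carriers was called, and their log2 changes ran from -0.63 (Slc35a5) to 0.01 (Slc35a1).

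None of the 3 measured erythroid carriers (Slc4a1, Slc29a1 and Slc6a9) was called, and none of 6 erythroid markers. Of 9 carriers known from the endothelium of the blood-brain barrier, 1 was higher (Slc7a5) and 2 were lower (Slc16a1 and Slc38a5), against 9.81% and 12.2% of all genes; 1 of 6 endothelial markers was lower.

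The 5 genes with a carrier symbol but no transport function included 1 of the largest falls. Slc9a3r1, a scaffold protein also known as Nherf1 that ties membrane proteins of microvilli to ezrin, had 9.85, 9.65 and 14.1 in dKO pools, against 88.5, 47.7 and 32.7 in control pools (log2 change -2.13, SE 0.31, limma adjusted p = 0.0012). Its partner Ezr, ezrin, had 104, 115 and 129 in dKO and 251, 274 and 195 in control pools (log2 change -1.04, adjusted p = 0.001). The lowest control pool was above the highest dKO pool in both. The related scaffold Slc9a3r2 was at 28.9, 20.7 and 19.5 in dKO and 26.0, 27.7 and 27.7 in control pools and was not called, nor were Slc4a1ap, Slc7a6os and Slc2a4rg-ps. Of the 5 partner proteins (these scaffolds with Ezr, Bsg and Emb), 4 were lower (80%, against 12.2% of all genes).

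The mitochondrial Slc25 family was compared as a neighbour. Of 38 Slc25 genes 9 were higher (23.7%) and 1 was lower (2.63%), with a median log2 change of 0.17. The carriers described here had 10.8%, 21.6% and -0.09, and all genes 9.81%, 12.2% and 0.00. Mitochondrially encoded genes held 11.3% to 19.9% of the signal in dKO and 5.99% to 10.4% in control pools. The difference between the families itself was not tested.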

How the data were processed

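Polyadenylated RNA of 3 dKO and 3 control pools was sequenced. Per the submitters' processing notes, reads were trimmed with cutadapt and quantified with RSEM 1.3.1 on GRCm38. No source used here names the annotation or the normalization. Deposited values are a normalised signal, and all 87294 of them equalled whole reads plus 0.5 per 1e6 of a TMM-scaled library size, within 0.01 reads, so the reads were recovered. The main test was limma 3.58.1 in R 4.3.3 with a variance trend on log2(value + 1), two-sided, with Benjamini-Hochberg adjustment over 14549 genes. edgeR 4.0.16 and DESeq2 1.42.0 on recovered reads were alternatives, with the others given at the end. Code was tested on simulated data. Positions and exon overlap came from GENCODE M21 (176 of 176 identifiers found); the libraries are not stated to keep strand, so reads in an overlap cannot be assigned. Classes follow family numbers. Named genes were the 12 largest called changes in each direction with groups apart and a mean of at least 5, up to 3 per class and direction by p, the 2 highest per class per kb, and all members of the lists; other genes were named after their values were seen. Members and lists were chosen with earlier results of these data known. Pools are biological replicates, per the labels. The results of some genes are not reported here.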

Additional observations from a re-analysis of the deposited data

How the results depend on the processing

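Higher and lower counts stayed within 1.5 times the main 19 and 38 with a pseudocount of 0.5, a filter at 5, no filter, quantile normalization, edgeR (19 and 34, of which 17 and 34 were among the main calls), DESeq2 (21 and 41) and without both control 1 and dKO 1 (23 and 33). Over all genes DESeq2 called 1616 higher and 2005 lower, and the fit without both pools 1428 and 1741, against 1427 and 1778 in the main fit. Without a variance trend 12 of the carriers were higher, and 1156 of all genes. With the cardiomyocyte score as a covariate 0 were higher and 4 lower, with a median log2 change of -0.22. Over all genes that fit called 38 higher and 144 lower, with a median of -0.05. There Slc47a1 (-0.58), Slc2a4 (-0.13), Slc6a8 (-0.28), Slc29a2 (-0.67) and Slc16a3 (-0.28) changed sign among the higher genes and Slc30a1 (0.0047) among the lower, and Slc9a3r1 was at -0.19. None of these genes was called in that fit (limma adjusted p of 0.74 to 0.998). Leaving out 1 pool at a time gave 9 to 20 higher and 28 to 33 lower carrier genes, with medians of -0.13 to -0.06. Over all genes the same fits called 898 to 1262 higher and 1269 to 1545 lower. The lowest higher counts of the carriers were 9 without dKO 2 and 10 without dKO 3, where 910 and 898 of all genes were higher. In all 6 such fits 7 of 19 higher and 26 of 38 lower carrier calls were kept. Among the calls lost, Slc16a3 was lost without dKO 1, Slc9a7 without dKO 3, Slc4a7 and Slc6a17 without dKO 2 or dKO 3, Slc47a1 without any 1 of the dKO pools, Slc30a9 without control 1, dKO 2 or dKO 3, Slc16a1 without control 4, dKO 1 or dKO 2, Slc30a4 without control 4, dKO 2 or dKO 3, and Slc13a4 without control 1, dKO 1 or dKO 3. The other 15 were lost in 4 or 5 of the 6 fits. The replicate block, for numbers 1 and 2 that occur in both groups, gave 7 higher and 17 lower, of which 6 and 17 were among the main calls. Calls also fell over all genes with this block, to 580 higher and 780 lower. Deviations of same-numbered pools correlated at -0.24 and -0.26 over 11607 genes, so the numbers were not taken to pair the pools. Depth limits the genes under 5, where 1 read is worth 0.0487 to 0.0740.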

Other observations

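Of 17 measured solute carriers that go by other symbols, 4 were lower (23.5%, against 12.2% of all genes) and none was higher (against 9.81%). Slco1a4, among the lower ones, reached 1 in control pools only. Slco2a1, a prostaglandin carrier, had 12.7, 10.99 and 10.01 in dKO pools, against 28.7, 31.2 and 28.9 in control pools (log2 change -1.33, SE 0.17, limma adjusted p = 0.00054). Slco2b1, an organic anion carrier, was at 11.7, 9.14 and 9.43 in dKO and 19.3, 14.1 and 24.7 in control pools (log2 change -0.85, adjusted p = 0.025), and its relative Slco1a4 at 0.0311, 0.0370 and 0.171 in dKO and 1.51, 5.65 and 4.16 in control pools (-2.04, adjusted p = 0.0046). The Golgi manganese and calcium protein Tmem165 had 114, 103 and 109 in dKO and 171, 170.0 and 165 in control pools (log2 change -0.63, adjusted p = 0.0027). The phosphate exporter Xpr1 was above control in every dKO pool, at 85.9, 114 and 110.2 in dKO and 83.3, 80.8 and 74.3 in control pools, and was not called (adjusted p = 0.085).

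Some carriers had 1 library far from the others. Control 1 was the highest library for the fatty acid carrier Slc27a6, with 1.09, 4.33 and 3.43 in dKO and 16.1, 3.61 and 5.30 in control pools, and for the glutamate carrier Slc1a2, with 1.77, 1.37 and 3.53 in dKO and 7.69, 0.670 and 2.38 in control pools.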
